A study of Prunus persica with 9 samples.

Results

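The MIR482 genes of peach (Prunus persica) were followed in leaf small RNA libraries before and after treatment with PpPep2, an endogenous plant elicitor peptide that acts as a danger signal. The 4 genes are those that carry the names MIR482a (ENSRNA049996187), MIR482c (ENSRNA049996546), MIR482e (ENSRNA049996194) and MIR482f (ENSRNA049996209) in the paper's list of differentially expressed miRNAs (DEMs), out of 210 listed pre_miRNA genes. That list was drawn from DEMs called on these same libraries against t0, so the changes of the 4 genes against t0 are given as a description, their p-values are no independent support, and a count of changed members is not a result about the family. The paper states that the family has further annotated members, so members here means these 4 genes only. Any other MIR482 gene could not be picked out, because the identifiers carry no names and 0 of them matched the reference table used here. For the same reason no genome positions are given.

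All plants were juvenile peaches of the variety Big Top, raised in vitro and kept in a glasshouse, and each library came from detached leaf blades of pooled plants. The control group (t0) held 3 libraries, which the sample labels call mock and the paper calls untreated. The other groups held 3 libraries each, taken 1 h and 24 h after both leaf surfaces were sprayed with 1 μM PpPep2. No control was taken at 1 h or 24 h, so an effect of the peptide cannot be told apart from an effect of time or handling. The values are normalized counts, reads on each pre_miRNA gene divided by a factor for each library. With only pre_miRNA genes in the table, the labelled tissue could not be checked against marker genes. The libraries held 115519 to 546709 reads on pre_miRNA genes, a 4.73-fold range, and replicate 2 of t0 was the shallowest. Depth was behind every member, since the lowest value was 119 reads, for MIR482a in that library.

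The miR482 family, with the related miR2118, is known in many seed plants for pairing with mRNAs of nucleotide-binding leucine-rich repeat (NLR) resistance genes, at the stretch that encodes the conserved P-loop of the receptor. A miRNA of 22 nt, longer than the usual plant miRNA by a base, can recruit the machinery that copies a cut target into double-stranded RNA. This is then diced into phased secondary siRNAs (phasiRNAs), which can silence further NLR genes. In tomato and other plants, this pairing is regarded as a brake on NLR levels that is eased during infection.

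The mature sequences listed for the 4 genes are shown first, because their differences decide whether reads of the members can be told apart. Capitals mark bases 2 to 8, the seed, and each sequence runs 5′ to 3′.
MIR482a (3p): uUUCCGAAaccucccauuccaa
MIR482c (3p): uUCCCAAGcccgcccauuccaa
MIR482e (3p): uUGCCUAUuccucccaugccaa
MIR482f (3p): uCUUUCCUacuccacccauucc
MIR482a (5p): gGGUGAGAgguugccggaaaga
The 3p sequences were all 22 nt long and began with U. Among the 39 mature sequences listed for all DEMs, 8 had this length, and outside the MIR482 genes they came from the 2 miR7122 genes. The 4 seeds were all different, and none was shared with another gene of the paper's DEM list. Genes outside that list had no sequence to compare. For MIR482c the same sequence is listed for the 3p and the 5p arm, whereas the 5p sequence of MIR482a is a separate one that begins with G.

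The longest unbroken run that the 4 genes had in common lay downstream of the seed. Single bases were also shared elsewhere, some of them within the seeds of MIR482a, MIR482c and MIR482e. The same sequences are repeated with capitals for the longest run of bases present in all of them.
MIR482a: uuuccgaaaccuCCCAUuccaa
MIR482c: uucccaagcccgCCCAUuccaa
MIR482e: uugccuauuccuCCCAUgccaa
MIR482f: ucuuuccuacuccaCCCAUucc
This run of 5 bases began at base 13 in MIR482a, MIR482c and MIR482e and at base 15 in MIR482f, and none of the 33 sequences listed for other genes held it. Several of those sequences are copies of one another and the run is short, so its absence there does not mark a family motif. MIR482a and MIR482c shared the last 10 bases, the longest run of any pair, and differed at 5 of 22 bases. MIR482a also differed from MIR482e at 5 bases, and MIR482c from MIR482e at 6. Read from the first base, MIR482f had only 6 bases in common with MIR482a, but when it was shifted by 2 bases 16 of the 20 paired bases were identical. No pair of members had the same mature sequence, and none had a copy among the other DEMs with a listed sequence. Reads of these sequences at full length are thus distinct between the 4 genes, although the authors' counting was of whole pre_miRNA genes and did not separate the arms.

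At t0, MIR482c was the most abundant member with a normalized count of 4406 ± 454.9 (SD, n = 3), followed by MIR482f with 3215 ± 311 (SD, n = 3). MIR482e had 534 ± 103 (SD, n = 3) and MIR482a 324 ± 71.0 (SD, n = 3). The mature sequences are of equal length, but the counts are of whole pre_miRNA genes with both arms. This order is thus one of counts and was not shown for the mature miRNAs. MIR482c lay above MIR482f, MIR482f above MIR482e and MIR482e above MIR482a in all 3 control libraries, and the ranges of these libraries did not overlap between neighbours in this order. By mean normalized count at t0, MIR482c ranked 15th of the 210 listed genes, MIR482f 18th, MIR482e 37th and MIR482a 45th. At 24 h the ranks were 22 for MIR482c, 13 for MIR482f, 29 for MIR482e and 33 for MIR482a.

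Replicate 1 of 1 h stood apart from the other libraries of its group in all 4 genes. Its normalized counts were 356 for MIR482a, 4652 for MIR482c, 491 for MIR482e and 3098 for MIR482f, each closer to the t0 mean than to the 24 h mean on the log2 scale. In replicate 2 none of the 4 genes was closer to t0, and in replicate 3 only 1 was. The other 131 genes tested may include further MIR482 genes. Of these 131, 67.2% were closer to t0 in replicate 1, against 39.7% in replicate 2 and 45.0% in replicate 3. The results for 1 h are therefore given with and without this library. It was the deepest 1 h library, with 338631 reads against 267132 and 224961, and only replicates 1 and 3 of t0 were deeper. The part of depth in its values was not tested.

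**Figure D1:**
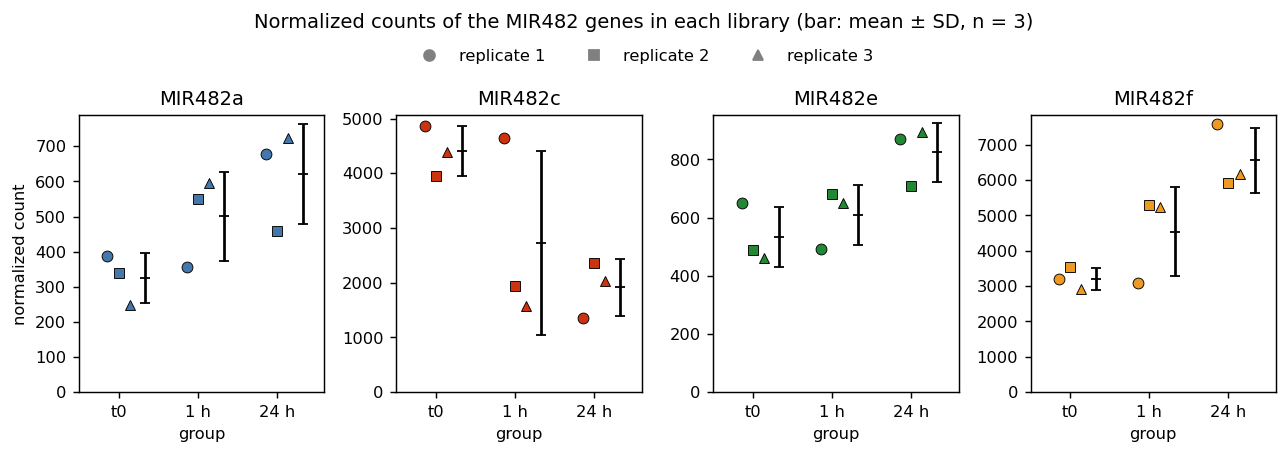
Normalized counts of MIR482a, MIR482c, MIR482e and MIR482f (vertical axes, from 0 and scaled by gene) in each library at t0, 1 h and 24 h, with a symbol for each replicate number and the mean ± SD of the 3 libraries beside them. At 24 h the libraries lie above t0 for 3 genes and below t0 for MIR482c, and replicate 1 of 1 h lies with the control.

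At 24 h, MIR482f, MIR482a and MIR482e were higher than at t0, and MIR482c was lower. The 24 h libraries did not overlap with the control libraries for any of the 4 genes, as was the case for 41.5% of all genes tested (21.5% lower, the others higher). Only MIR482f passed the test across all genes, in which 14.1% of the genes were called (5.19% higher and 8.89% lower). This test was limma on log2 values, after adding 1, of the 135 genes that reached a mean of 5, with Benjamini-Hochberg adjusted p-values. The paper, with DESeq2, called all 4 genes at 24 h.

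MIR482f, the most abundant member over all libraries, had normalized counts of 3215, 3527 and 2904 in the control libraries and of 7596, 5914 and 6159 at 24 h. Every 24 h library exceeded the highest control library. Its mean rose from 3215 ± 311 to 6556 ± 909 (SD, n = 3), 2.04 times the control level. On the log2 scale the change was 1.02 (SE 0.23), with an adjusted p of 0.0246 in limma (Benjamini-Hochberg). The call was lost whenever any library of t0 or 24 h was left out, with adjusted p between 0.0549 and 0.0758, while the log2 fold change stayed between 0.91 and 1.09. It was also lost when no minimum mean was set (adjusted p = 0.0600).

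For MIR482c, the only member that was lower, the normalized counts were 4869, 3959 and 4390 in the control libraries and 1351, 2369 and 2026 at 24 h. The highest 24 h library remained well below the lowest control library. The 24 h mean of 1915 ± 518 (SD, n = 3) was 0.435 of the control level. With a change of -1.24 on the log2 scale (SE 0.39) this did not pass the limma test (adjusted p = 0.0638). When replicate 1 of 1 h, which enters the shared estimate of spread, was left out, MIR482c passed with an adjusted p of 0.00613. MIR482c also passed in a fit to the 6 libraries of t0 and 24 h alone (adjusted p = 0.0109), in which 23.0% of all genes were called. Replicate 1 of 1 h was set apart by its distance from its group in the MIR482 genes. A smaller spread without it was thus built in.

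MIR482a, the least abundant member, had normalized counts of 387, 338 and 247 at t0 and of 679, 458 and 723 at 24 h. The lowest 24 h library, with 175 reads on the gene, still lay above all controls. The 24 h mean was 620.0 ± 142 (SD, n = 3), and the limma estimate on the log2 scale was 0.93 (SE 0.29, adjusted p = 0.0580). For MIR482e the counts were 652, 489 and 460 at t0 and 871, 709 and 896 at 24 h. The gap between the groups was narrow, from 652 in the highest control to 709 in the lowest 24 h library. Its 24 h mean was 825 ± 102 (SD, n = 3), and its log2 estimate was 0.64 (SE 0.22, adjusted p = 0.0729 in limma). Without replicate 1 of 1 h both passed, MIR482a with an adjusted p of 0.0247 and MIR482e with 0.0390, and in that fit 25.9% of all genes were called. The limit given for MIR482c without that library holds here too.

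**Figure D2:**
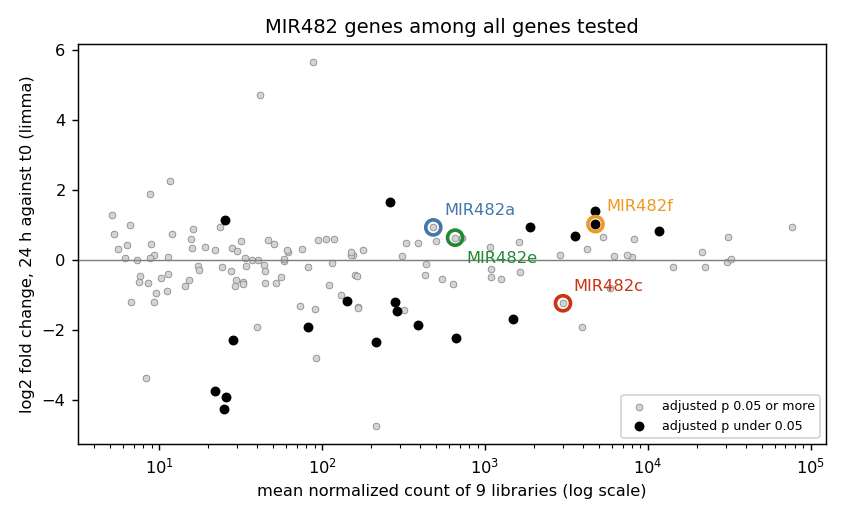
Log2 fold change at 24 h against t0 from limma (vertical axis) by mean normalized count of the 9 libraries (horizontal log axis) for the 135 genes tested, with genes at an adjusted p under 0.05 in black and the MIR482 genes ringed. MIR482f is the only ringed gene in black, with a log2 fold change of 1.02, and MIR482c is the only one below 0, at -1.24.

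Within the whole table these were moderate changes. The median absolute log2 fold change of the genes tested was 0.58 at 24 h, and 27 genes changed more than MIR482c, 33 more than MIR482f, 39 more than MIR482a and 58 more than MIR482e. The median of the 4 genes, with MIR482c lower and the others higher, was 0.78, beside -0.01 for all genes tested. As the 4 genes were listed as changed on these libraries, this difference is no result about the family. Bringing the libraries to the same total moved the median of all genes to -0.30 and bringing them to the same upper quartile moved it to 0.37. The direction of each of the 4 genes at 24 h was kept under both scalings, with log2 fold changes of 0.73 and 1.43 for MIR482f, -1.52 and -0.83 for MIR482c, 0.64 and 1.33 for MIR482a and 0.35 and 1.04 for MIR482e, in that order. Of the genes that passed limma at 24 h, 7 were higher and 12 lower under the deposited scaling. The split was 4 and 18 with equal totals, and 21 and 8 with equal upper quartiles.

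At 1 h none of the 4 genes passed the test, in which 0.741% of all genes were called. The 1 h and the control libraries overlapped for all of them, whereas they did not overlap for 21.5% of all genes tested (8.89% higher and 12.6% lower). Without replicate 1, which lay with the controls, none of them would overlap, although for MIR482e the gap was less than 1 normalized count. Leaving out a library can only lower the overlap of any gene. The share of all genes in that case was not computed, so this is no result about the family. MIR482c had 4652, 1940 and 1569 normalized counts in the 1 h libraries, so that replicates 2 and 3 were already within the range of 24 h while replicate 1 was within that of t0. MIR482f had 3098, 5309 and 5226, with replicates 2 and 3 between the ranges of t0 and 24 h. The 1 h counts were 356, 550 and 596 for MIR482a and 491, 682 and 652 for MIR482e.

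Over all 3 libraries, the log2 fold change at 1 h was -0.86 for MIR482c (SE 0.39, adjusted p = 0.354) and 0.46 for MIR482f (SE 0.23, adjusted p = 0.354). It was 0.62 for MIR482a (adjusted p = 0.354) and 0.19 for MIR482e (adjusted p = 0.694), from limma with Benjamini-Hochberg values. Without replicate 1 the fold change of MIR482c was -1.33 (adjusted p = 0.00933) and that of MIR482f 0.72 (adjusted p = 0.0245), and both passed, in a fit where 13.3% of all genes were called. MIR482a with 0.84 (adjusted p = 0.0813) and MIR482e with 0.34 (adjusted p = 0.378) did not pass in the same fit. That library was set apart because all 4 genes lay near t0 in it. Larger changes from t0 without it were thus built in, and these p-values are no support. The directions at 1 h were those of 24 h for all 4 genes, but the contrasts share the control libraries.

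**Figure D3:**
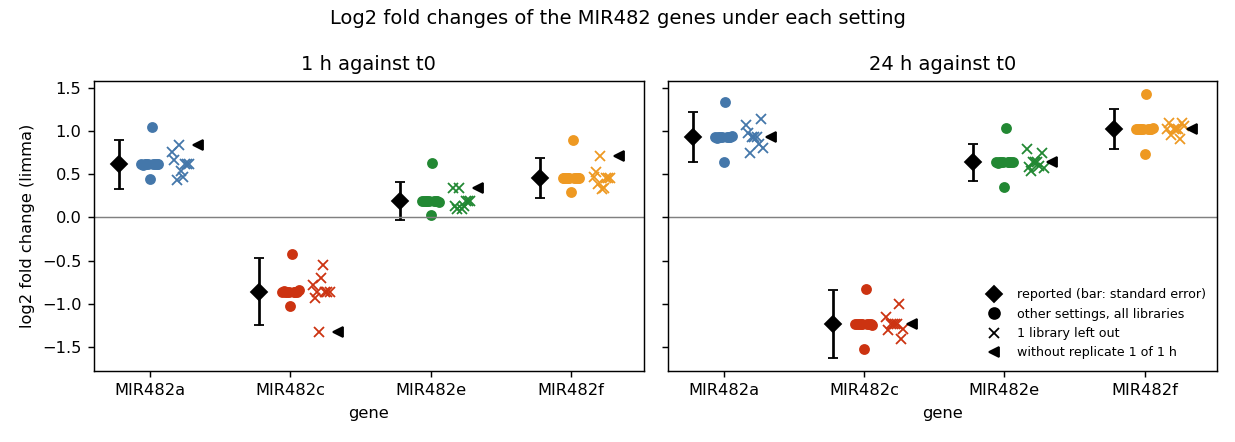
Log2 fold changes of the MIR482 genes (vertical axis) at 1 h and 24 h against t0, with diamonds for the values reported (bars are standard errors), circles for 11 other settings (1 of them fitted to the compared groups only), crosses for fits with 1 library left out and triangles for the fit without replicate 1 of 1 h. No setting moved a gene across 0, but several could alter only the spread. Leaving out that replicate moved MIR482c at 1 h from -0.86 to -1.33.

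From 1 h to 24 h, the log2 fold change was 0.56 for MIR482f (SE 0.23, adjusted p = 0.336 in limma) and 0.45 for MIR482e (SE 0.22, adjusted p = 0.405). For these genes the 24 h libraries all lay above the 1 h libraries, as for 11.9% of all genes tested, while 9.63% lay below. It was 0.31 for MIR482a (adjusted p = 0.573) and -0.38 for MIR482c (adjusted p = 0.642), where the groups overlapped. No gene of the whole table passed this comparison in limma (0.0% called), whereas 18 had an unadjusted p under 0.05. Without replicate 1 of 1 h the log2 fold change of MIR482c was 0.10 in place of -0.38, so that its order between 1 h and 24 h rests on that library, and that of MIR482f was 0.31.

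Since MIR482c lay below its control range at 24 h and the other members lay above theirs, the members were next compared within each library, where the scaling of libraries plays no part. MIR482f was 0.660, 0.891 and 0.662 times as abundant as MIR482c in the control libraries. At 1 h the ratio was 0.666 in replicate 1, 2.74 in replicate 2 and 3.33 in replicate 3, and at 24 h it was 5.62, 2.497 and 3.04. MIR482c was thus the leading member in all control libraries and in replicate 1 of 1 h, and MIR482f in the other 5 libraries. On the log2 scale the ratio was -0.45 ± 0.25 at t0, 0.87 ± 1.27 at 1 h and 1.80 ± 0.61 at 24 h (SD, n = 3), and 1.59 at 1 h without replicate 1. Being built from genes chosen with their changes known, this ratio was not tested.

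**Figure D4:**
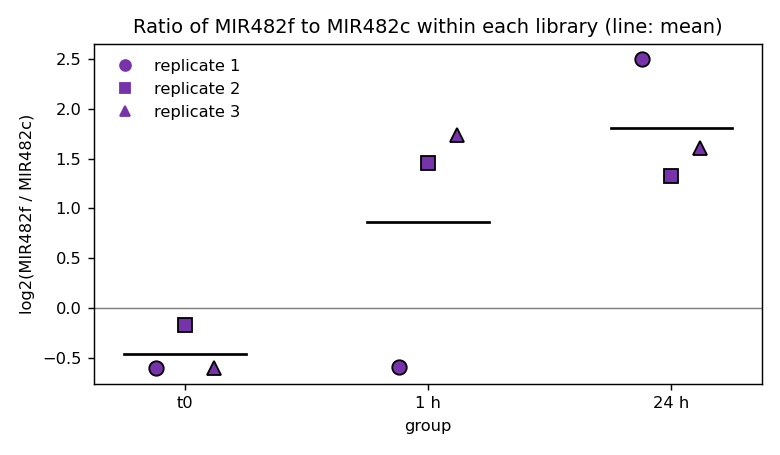
Log2 ratio of MIR482f to MIR482c within each library (vertical axis) at t0, 1 h and 24 h, with a symbol for each replicate number and a line for the mean of 3 libraries. All controls and replicate 1 of 1 h lie below 0 and the other 5 libraries lie above it, at 1.32 or more.

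The ratios among MIR482a, MIR482e and MIR482f differed less between groups. MIR482f was 4.93, 7.21 and 6.31 times MIR482e at t0, 6.31, 7.79 and 8.01 times at 1 h and 8.72, 8.35 and 6.88 times at 24 h. These ranges overlapped between t0 and 24 h. MIR482e was 1.45 to 1.86 times MIR482a at t0, 1.09 to 1.38 times at 1 h and 1.24 to 1.55 times at 24 h. For this ratio the ranges of t0 and 1 h did not overlap, while those of t0 and 24 h did. MIR482e stayed above MIR482a in all 9 libraries.

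As a share of the summed counts of the 4 genes, MIR482c made up 53.4%, 47.6% and 54.9% in the control libraries, 54.1%, 22.9% and 19.5% at 1 h and 12.9%, 25.1% and 20.7% at 24 h. MIR482f made up 35.2%, 42.4% and 36.3% at t0, 36.0%, 62.6% and 65.0% at 1 h and 72.4%, 62.6% and 62.8% at 24 h. For each of the 4 genes, the shares at t0 and at 24 h did not overlap. The shares within a library add up to the whole, so a lower share of MIR482c raises those of the others. The 4 are thus not separate observations. MIR482e went from 6.26 ± 0.77% at t0 to 8.31 ± 0.82% at 24 h, and MIR482a from 3.80 ± 0.62% to 6.23 ± 1.28% (SD, n = 3). Counting error was at most 1.81 percentage points on either side of any of these shares (95% Wilson interval).

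The sum of the 4 genes differed less between the groups than most of its parts. It was 9122, 8314 and 8002 normalized counts at t0, 8598, 8480 and 8043 at 1 h and 10498, 9449 and 9804 at 24 h. All 24 h libraries were above all controls, by a narrow gap, and the 1 h libraries were within the control range. The mean was 8479 ± 578 at t0, 8374 ± 292 at 1 h and 9917 ± 533 at 24 h (SD, n = 3), and 8262 at 1 h without replicate 1. The log2 ratio of the means was 0.23 at 24 h and -0.02 at 1 h. Without MIR482c, the sum of the other members was 4073 ± 403 at t0 and 8001 ± 1051 at 24 h (SD, n = 3).

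The higher sum at 24 h depended on how libraries were scaled. Taken as a share of all miRNA counts of a library, the sum was 3.05%, 2.53% and 3.00% at t0, 3.13%, 2.31% and 2.18% at 1 h and 2.93%, 2.601% and 2.67% at 24 h. On this measure the 3 groups overlapped. With libraries brought to the same total the log2 ratio of the sums at 24 h was -0.07, and with the same upper quartile it was 0.61. Whether the summed abundance of the 4 genes changed can therefore not be told from these values, whereas the ratio of MIR482f to MIR482c does not involve the scaling.

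**Figure D5:**
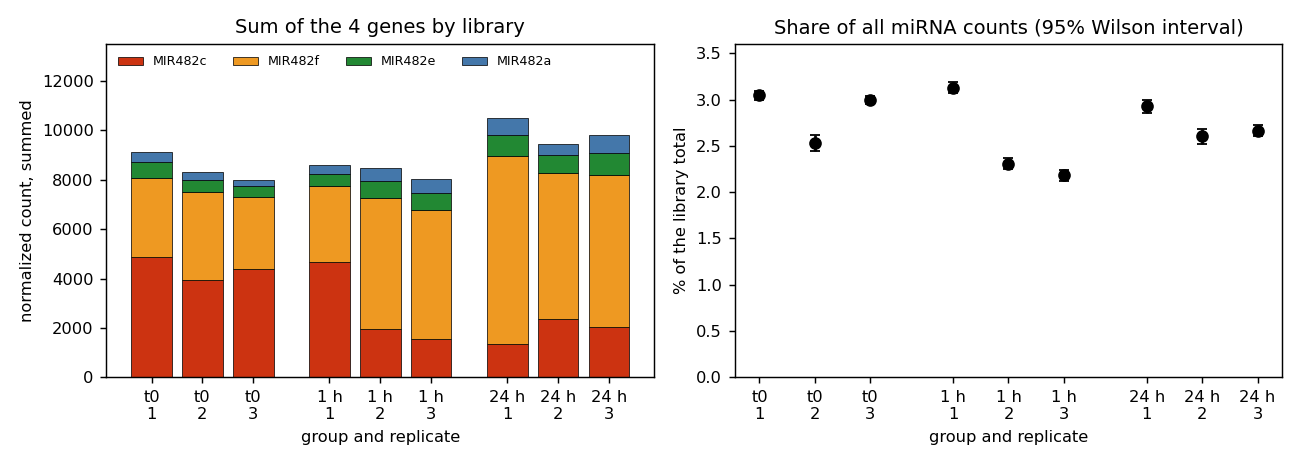
Left, normalized counts of the 4 MIR482 genes stacked to their sum (vertical axis from 0) for each library. Right, the sum as a percentage of all miRNA counts of the library with 95% Wilson intervals, which cover counting error only. The sums lie between 8002 and 10498 while MIR482c takes between 12.9% and 54.9% of them, and the percentages on the right run from 2.18 to 3.13 with overlapping groups.

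Across the 9 libraries the log2 levels of MIR482a, MIR482e and MIR482f went together, with Pearson correlations of 0.89 to 0.92, and that of MIR482c went against them, with -0.77 for MIR482e, -0.88 for MIR482a and -0.94 for MIR482f. The libraries of a group share their condition, so these values describe the pattern only. Of all other genes tested, miR530 (0.96), miR156h (0.94) and miR166e (0.94) were most like MIR482c. In other plants miR156 acts on SPL transcription factors, which time the passage from juvenile to adult growth, and miR166 on HD-ZIP factors that shape leaves and vessels. Their mean normalized counts at t0, 1 h and 24 h were 391, 178 and 76.0 for miR530, 693, 288 and 188 for miR156h and 2574, 1091 and 801 for miR166e.

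The genes most like MIR482f were miR403 (0.95), miR7122a (0.93) and ENSRNA049997151 (0.91). MIR482a was most like miR7122a (0.93), MIR482e (0.92) and miR7122b (0.91), and MIR482e was most like ENSRNA049996202 (0.95), MIR482a (0.92) and miR162 (0.91). The identifiers given without a name are not among the listed DEMs. The miR7122 genes, the only others with a listed sequence of 22 nt, are known in Rosaceae and other plants as triggers of phasiRNAs from pentatricopeptide repeat genes.

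Other miRNAs of the silencing pathway were read beside the family. Of 3 regulators of the silencing machinery, miR162 (which targets the dicing enzyme DCL1) and miR403 (which targets AGO2) rose at 24 h, with log2 fold changes of 0.69 (adjusted p = 0.0377) and 0.94 (adjusted p = 0.0246). The value of miR168, which targets AGO1, the usual partner of miRNAs that begin with U, was -0.69 (adjusted p = 0.122). Of 3 further miRNAs that set off secondary siRNAs, miR7122a and miR7122b rose by 1.40 and 1.65 (adjusted p = 0.0144 for each). miR390, which acts on TAS3, fell by 1.44 (adjusted p = 0.0144), each on the log2 scale in limma. All 5 calls were lost without a minimum mean and when replicate 1 or 3 of t0 was left out, where no gene of the table passed limma (45, 37 and 37 had an unadjusted p under 0.05). Without replicate 1 of 24 h only miR7122b kept its call and without replicate 3 of 24 h only miR7122b and miR390, and miR162 also lost its call without any other library of t0 or 24 h, without replicate 2 of 1 h and with equal totals, where its log2 value was 0.40 (adjusted p = 0.107 in limma). None of these 6 genes passed at 1 h with all libraries under the deposited scaling. Without replicate 1 of 1 h, miR7122a and miR7122b passed with log2 values of 1.24 (adjusted p = 0.00427) and 1.64 (adjusted p = 0.0032) in limma, and with equal upper quartiles miR7122b passed at 1.74 (adjusted p = 0.0360). All of them come from the same list of DEMs as the MIR482 genes, so that 4 higher, 1 lower and 1 not called at 24 h is no independent evidence, and 14.1% of all genes were called.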

How the data were processed

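Small RNA libraries of peach leaves, 3 for each of t0, 1 h and 24 h, were analysed. According to the paper and the sample labels, reads were trimmed with Trim Galore 0.6.6, mapped with STAR 2.5.3a and quantified with RSEM 1.3.0 on annotated pre_miRNA genes, and tested with DESeq2 1.26.0. The deposited values are a signal, counts normalized by the authors with a factor for each library and not raw reads. Table columns were matched to samples by the codes in the sample descriptions. Within each library 100.0% of the values above 0 were whole multiples of a fixed step of 0.488 to 2.844 normalized counts, within rounding of the deposited decimals, and this step was taken as 1 read. Too few of these values were low to base a count test on them.

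The test was limma 3.58.1 (R 4.3.3), fitted without a block to the 9 libraries after adding 1 and taking log2, with a mean-dependent prior. It covered 135 genes whose mean over libraries reached 5, and Benjamini-Hochberg values were computed over these. Where DEMs are counted by setting, a DEM had a limma value under 0.05, whereas the DEMs of the paper's list were called with DESeq2. On the log2 scale the added 1 understates changes of low genes. Replicates were taken from the labels, and p-values cover the spread between these libraries. Sums, shares and ratios of members were not tested. Likeness was the Pearson correlation of log2 values over 9 libraries, and the 3 highest genes were named for each member. Mature sequences and names of listed genes were taken from the paper's supplementary list. Python 3.11.15 with pandas 2.3.3, scipy 1.17.1 and matplotlib 3.10.9 was used. The members, lists and alternatives were chosen with earlier results of these data known. Target predictions were not used here.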

Additional observations from a re-analysis of the deposited data

How the results depend on the processing

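For the 4 genes, 20 alternatives were run in each comparison, and at 1 h and 24 h against t0 no direction was reversed. Another filter of genes, no trend, the replicate block and a fit to the compared groups alone could not alter a log2 fold change. Nor could leaving out a library of the group not compared, so the unreversed directions rest on the other alternatives. The number of DEMs at 24 h was 19, and it was 0 without a minimum mean (limma, 45 genes at an unadjusted p under 0.05), 29 with the same upper quartile, 12 without the trend, 31 with only the 6 libraries compared, 10 with the replicate block and 0 to 35 with a library left out, the lowest without replicate 1 or 3 of t0 (37 genes at an unadjusted p under 0.05 each). At 1 h it was 1, and it was 2 with the same total, 4 with the same upper quartile and 1 to 18 with a library left out. From 1 h to 24 h it was 0, and 0 to 2 with a library left out. The cause of these differences was not tested.

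At 24 h MIR482f, with a log2 fold change of 1.02, lost its call without a minimum mean and with the replicate block (1.02, adjusted p = 0.0585), as did miR162 (adjusted p = 0.0752) and miR403 (adjusted p = 0.0516) with the block and miR162 without the trend (adjusted p = 0.0678), and the range with a library left out was 0.91 to 1.09. MIR482a passed at 0.93 with a minimum mean of 20 (adjusted p = 0.0457) and with only the 6 libraries compared (adjusted p = 0.0363), and at 1.33 with the same upper quartile (range 0.75 to 1.14). MIR482c passed at -1.24 with only the 6 libraries compared (adjusted p = 0.0109, range -1.41 to -1.003), and without replicate 3 of 1 h (adjusted p = 0.0440). MIR482e passed at 1.04 with the same upper quartile (adjusted p = 0.0402, range 0.54 to 0.79). From 1 h to 24 h MIR482c ranged from -0.688 to 0.10, the last without replicate 1 of 1 h. The log2 ratio of the MIR482 sums at 24 h was -0.066 after scaling to equal totals and 0.61 after scaling to equal upper quartiles (range 0.18 to 0.28 with a library left out), and at 1 h it was -0.17 and 0.40 (range -0.058 to 0.038, with 0.038 without replicate 1 of t0 and 0.01 without replicate 3 of 1 h). The shares and the ratio of MIR482f to MIR482c do not depend on the scaling. Correlations of same-numbered replicates, as deviations from group means, ran from -0.41 to 0.17, and those of other pairs from -0.37 to 0.39. Not every library was closest to those of its own number. Deviations within so small a group cancel, so these values cannot settle whether replicates were paired.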
